A study of Mus musculus with 8 samples.

Results

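The 10 genes described here encode C-type lectin receptors of macrophages and dendritic cells: Clec7a, Clec4a1, Clec4b1, Clec10a, Mgl2, Cd209a, Cd209b, Cd209d, Cd209f and Cd209g. They were taken by symbol from the 56749 features of the deposited matrices, and each symbol matched 1 feature in all 8 libraries. The libraries hold single-nucleus RNA from frozen visceral white adipose tissue, the fat around the abdominal organs, of 8 mice in 4 groups of 2. All mice carried 1 p21 allele with an mCherry reporter, and per the labels the groups were p21+/mCherry mice on a standard diet (mCherry SD, named rep144 and rep146 in the titles), p21+/mCherry mice on a high-fat diet (mCherry HFD, rep128 and rep129), p21+/mCherry-Tert mice on the high-fat diet (Tert HFD, rep134 and rep136) and p21+/mCherry-TertCi mice on the high-fat diet (TertCi HFD, rep138 and rep140). The transgenes are driven by the p21 promoter. Tert encodes the catalytic subunit of telomerase, and the labels do not spell out Ci. Age and sex are not given in the sources used here, and there was no standard-diet group with either transgene, so the effect of a transgene was read on the high-fat diet only.

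C-type lectin receptors bind sugars on microbes, on dying cells and on the body's own glycoproteins through a calcium-dependent or related carbohydrate-recognition fold. Some, such as Dectin-1, the product of Clec7a, activate the cell through the kinase Syk and the adaptor Card9. Others are endocytic and clear glycoproteins, and several of these, with Mrc1, Lyve1 and Cd163, are familiar markers of tissue-resident macrophages that lie along blood vessels. In obese fat, macrophages that take up lipid from dying adipocytes and express Trem2, Gpnmb and Cd9 become frequent, and these are called lipid-associated macrophages.

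By position in the RefSeq annotation, the genes lie on 3 chromosomes. Cd209a, Cd209d, Cd209b, Cd209f and Cd209g lie in 1 run of Cd209 genes on chromosome 8, with Cd209f next to Cd209g. Clec10a and Mgl2, which encode a pair of lectins for galactose and N-acetylgalactosamine, are neighbours on chromosome 11. Clec7a, Clec4a1 and Clec4b1 lie on chromosome 6, with Clec7a between Clec1a and Olr1, and, apart from it, Clec4a1 beside Clec4a3 and Clec4b1 between Clec4a4 and Clec4a2. Near-identical copies bear on the counting: of all 50-base words in the annotated transcripts (GENCODE M21), 29.8% of those of Cd209f also occurred in Cd209g, 16.6% of those of Cd209g in Cd209f, 12.2% of those of Mgl2 in Clec10a and 8.49% of those of Clec10a in Mgl2. Clec4b1 shared 8.68% of its words with Clec4a2, and Clec7a, Clec4a1, Cd209a, Cd209b and Cd209d shared none with another annotated gene. Reads from shared words cannot be assigned to 1 gene. By this measure the levels within the Cd209f and Cd209g pair, and within the Clec10a and Mgl2 pair, are less certain than the others. Intron sequence outside the annotated transcripts was not compared.

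The promoters of 4 genes are shown because the results below turn on them: Cd209f and Cd209g, which were both lower in 1 comparison, and Mgl2 and Clec7a, which moved in opposite directions. Each runs from 250 bases before to 50 bases after the gene's start, 5′ to 3′ on the gene's own strand, from RefSeq (GRCm38.p6, a build other than the mm39 of the submitters' processing notes). They lie at chr8:4105715-4106014 (Cd209f, minus strand), chr8:4134486-4134785 (Cd209g, plus strand), chr11:70130107-70130406 (Mgl2, plus strand) and chr6:129472730-129473029 (Clec7a, minus strand). Capitals mark matches on either strand to the core of the PU.1 site (GAGGAA) or to the AP-1 site (TGACTCA). The MAF half-site TGCTGA was searched as well and had no match in these 4.
Cd209f: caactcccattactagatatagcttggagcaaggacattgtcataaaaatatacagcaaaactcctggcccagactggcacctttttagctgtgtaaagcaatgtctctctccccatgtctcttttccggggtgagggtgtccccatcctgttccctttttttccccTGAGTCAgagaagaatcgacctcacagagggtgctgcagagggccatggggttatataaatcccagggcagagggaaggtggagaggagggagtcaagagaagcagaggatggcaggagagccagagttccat
Cd209g: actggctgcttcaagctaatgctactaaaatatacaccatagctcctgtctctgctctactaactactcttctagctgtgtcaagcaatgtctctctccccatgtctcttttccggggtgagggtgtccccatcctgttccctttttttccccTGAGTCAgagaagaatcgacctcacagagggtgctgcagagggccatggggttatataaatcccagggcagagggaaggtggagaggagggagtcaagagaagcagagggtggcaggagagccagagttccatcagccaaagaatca
Mgl2: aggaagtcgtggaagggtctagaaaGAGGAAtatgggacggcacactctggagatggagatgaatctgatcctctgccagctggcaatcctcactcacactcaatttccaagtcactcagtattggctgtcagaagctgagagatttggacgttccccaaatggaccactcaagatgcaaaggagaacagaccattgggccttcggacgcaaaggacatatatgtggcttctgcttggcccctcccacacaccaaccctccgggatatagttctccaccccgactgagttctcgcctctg
Clec7a: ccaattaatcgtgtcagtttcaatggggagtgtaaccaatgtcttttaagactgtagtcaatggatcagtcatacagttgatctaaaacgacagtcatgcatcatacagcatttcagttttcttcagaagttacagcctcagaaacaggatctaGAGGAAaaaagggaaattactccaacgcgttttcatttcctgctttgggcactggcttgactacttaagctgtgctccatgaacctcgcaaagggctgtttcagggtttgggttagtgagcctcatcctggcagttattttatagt

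The Cd209f and Cd209g promoters were identical at 258 of 300 bases (86.0%) in a global alignment, against a median of 51.2% over the 36 pairs of the 9 member promoters in the table. Both held the AP-1 site, 83 bases before the start in Cd209f and 97 in Cd209g, and 5.202% of all 32851 promoters of this length in the table hold it. The PU.1 core was found in the promoters of Clec7a, Clec4a1, Clec4b1, Mgl2 and Cd209d, which is 5 of 9, and in 28.3% of all promoters. The MAF half-site was found in Cd209a and Cd209d, 2 of 9, and in 19.5% of all promoters. These are matches of letters in a fixed window and show no binding.

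After removal of called doublets, 30209 nuclei were kept, between 1978 and 7433 per mouse, with median depths from 1682 (Tert HFD rep136) to 7134 UMIs, that is, distinct RNA molecules counted, per nucleus. Of these, 8420 were macrophage-like: 3.46% and 4.87% of the nuclei of the mCherry SD mice, 49.5% and 47.6% of the mCherry HFD mice, 26.0% and 26.1% of the Tert HFD mice and 19.5% and 14.8% of the TertCi HFD mice. Sub-clustering without the members and without other C-type lectins gave lipid-associated (4551), perivascular (2725) and proliferating (538) macrophage-like nuclei, and 606 nuclei led by Cd226 and Skint3 that no marker list named. Of the lipid-associated nuclei, a subcluster of 1844 led by Myom1 and one of 932 led by Tmem267 got that name from a rule added after the data were seen, not from the rule for the marker lists. Against the other myeloid nuclei, their best-scoring lists were mesothelial (0.10) and adipocyte (0.51), with 0 markers raised in either. The added rule compared only the lipid-associated and perivascular lists, so the name is less certain for them. Apart from these stood 199 dendritic-like nuclei, led by Clec9a and Flt3 or by Mreg and Il12b, and 76 monocyte-like nuclei. Of 30088 distinct nuclear barcodes, 119 occurred in more than 1 library. Tert and mCherry RNA could not check the genotype labels, so all directions are those of the libraries as labelled. Mice of 1 group differed by far more than sampling noise, so each library counts as 1 replicate. Per the labels, tissue was processed in randomised batches of 2, and which mice shared a batch is not given.

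Macrophage RNA was also counted in nuclei of other cells, which sets the level below which a member's signal is not read as expression. The 10 members had 44.8% (Mgl2) to 61.1% (Clec7a) of their UMIs within kept nuclei in macrophage-like nuclei. Over the 17 clusters of 500 or more nuclei that held no named myeloid class, Clec10a ranged from 5.08 to 161 CPM (the UMIs of a gene per 1000000 UMIs of the same nuclei), with the highest value in a cluster led by Gfra2, Retnla and F13a1 that joined progenitor and perivascular markers and was left out. That cluster was the highest for every member but Clec7a, at 65.3 for Clec4a1, 60.3 for Clec4b1, 54.5 for Mgl2, 9.08 for Cd209a, 40.4 for Cd209b, 35.6 for Cd209d, 38.6 for Cd209f and 27.5 for Cd209g. Since it carried perivascular markers, the highest of the other 16 clusters serves as the background here: 60.5 for Clec7a and 87.5 for Clec10a, both in endothelial-like nuclei, 40.7 for Clec4a1, 57.7 for Clec4b1, 25.6 for Mgl2, 6.83 for Cd209a, 17.8 for Cd209b, 15.5 for Cd209d, 14.4 for Cd209f and 13.1 for Cd209g. In adipocyte-like nuclei every member was at or below 5.58 CPM. These levels are pooled over all mice, and the background of a single group was not measured. It may differ between groups: over all barcodes the log2 fold change of Clec7a with diet was 3.11. How much of the signal in nuclei of other cells came from free RNA and how much from mixed droplets was not tested.

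**Figure D1:**
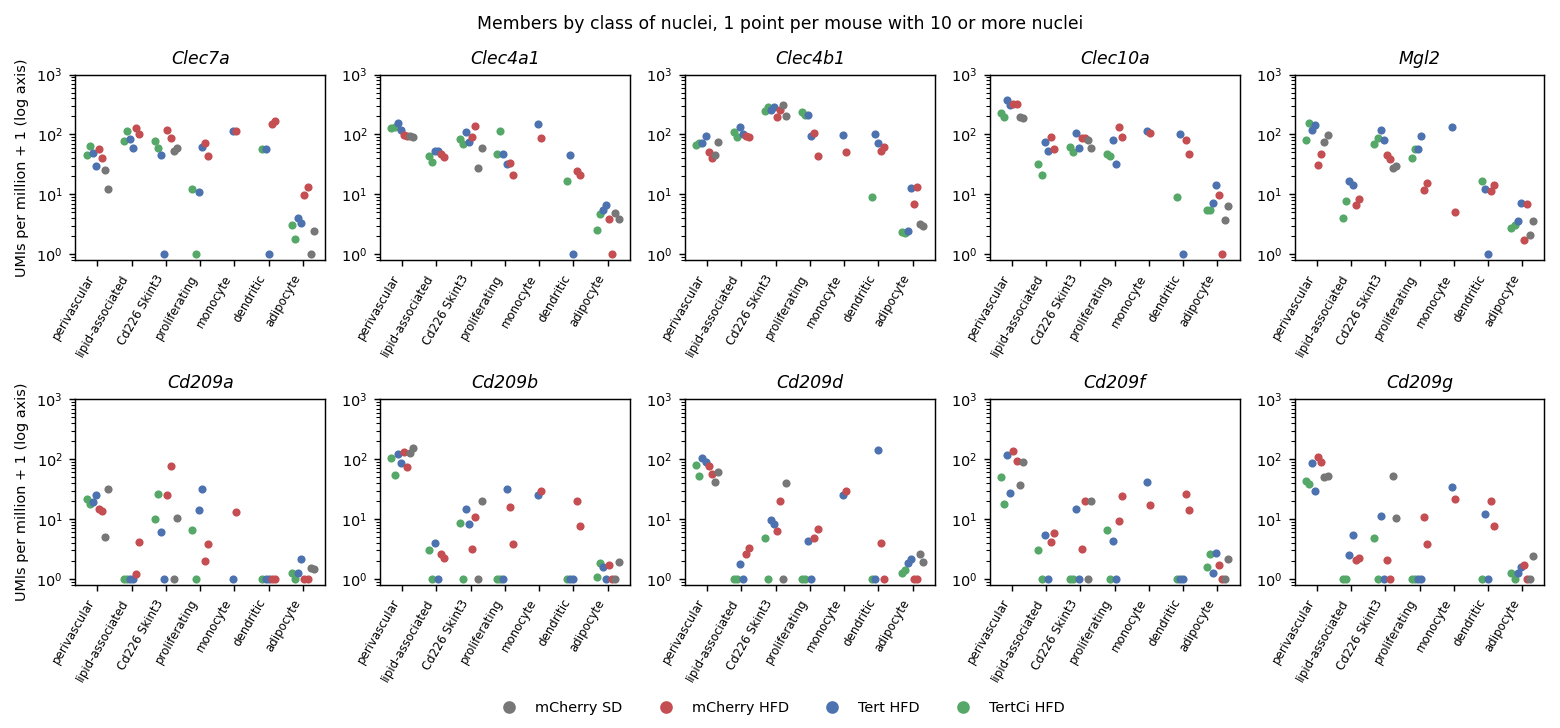
CPM (UMIs per 1000000) plus 1 (log axis) for each of the 10 genes in each class of nuclei (horizontal axis), 1 point per mouse with at least 10 nuclei in the class, coloured by group. Cd209b, Cd209d, Cd209f and Cd209g stand highest in perivascular nuclei, apart from 1 dendritic-like value of Cd209d (rep136, from 2 UMIs), Clec4b1 in the Cd226 and Skint3 nuclei, and Clec7a is spread over all myeloid classes.

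The members differed in which myeloid nuclei held them at the highest level, and the values that follow are a description, since the clusters were made from the same nuclei. Levels are CPM, here pooled over mice. Clec7a, the receptor for fungal β-glucan, reached 197 in the lipid-associated nuclei led by Myom1 and Ms4a14 (which also had Clec7a itself among their leading genes), 126 in dendritic-like and 109 in monocyte-like nuclei. It was at 67.0 in the lipid-associated nuclei led by Gpnmb and Mmp12 and at 48.1 in perivascular nuclei, which is below the background. Clec4b1, an activating receptor that signals through the Fc receptor gamma chain, was at 236 in the Cd226 and Skint3 nuclei, 116 in proliferating, 95.04 in lipid-associated and 61.3 in perivascular nuclei. Clec4a1, of the dendritic cell immunoreceptor family, was at 119 in perivascular, 90.8 in monocyte-like, 88.9 in Cd226 and Skint3 and 45.4 in lipid-associated nuclei, and within the latter at 79.9 in the Myom1-led and 17.3 in the Gpnmb-led nuclei.

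In sums over all mice the galactose lectins and the Cd209 genes were highest in perivascular nuclei, although not in every mouse. Among classes of 10 or more nuclei in a mouse, Cd209d in rep136 was at 142 in dendritic-like and 87.8 in perivascular nuclei, and Cd209g in rep144 at 52.5 in Cd226 and Skint3 and 49.0 in perivascular nuclei, both from 2 UMIs in the former class. Clec10a was at 305 in perivascular nuclei, at 119 in proliferating nuclei, above the background but below the mixed cluster, and at 79.2 in lipid-associated nuclei, below the background. After each nucleus was thinned to 1000 UMIs, 24.3% of perivascular nuclei had a Clec10a UMI, against 6.04% of lipid-associated and 0.572% of adipocyte-like nuclei. Before thinning, the share in adipocyte-like nuclei was 3.13%, at median depths of 4865 UMIs in perivascular and 4998 in adipocyte-like nuclei. Mgl2 was at 76.1 in perivascular, 69.4 in Cd226 and Skint3 and 6.47 in lipid-associated nuclei, and in rep128 it was at 44.4 in the Cd226 and Skint3 nuclei and 30.5 in the perivascular ones. Cd209b (SIGN-R1, a receptor for microbial polysaccharide) was at 116 in perivascular and 1.60 in lipid-associated nuclei, Cd209d at 81.8 and 1.56, Cd209f at 101 and 3.28, and Cd209g at 79.3 and 1.15. The 4 lipid-associated values lie below the median of the 17 other clusters and are not read as expression. In proliferating and in Cd226 and Skint3 nuclei all 4 were below the background. In monocyte-like nuclei Cd209b was at 31.0 and the other 3 at 24.8 each, from 12 to 15 UMIs a gene, above the background and below the mixed cluster.

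Cd209a, the mouse gene closest in name to the human dendritic cell lectin DC-SIGN, was low everywhere. It had 314 UMIs in macrophage-like nuclei, at 17.1 CPM in perivascular and 16.1 in Cd226 and Skint3 nuclei. Only dendritic-like nuclei led by Clec9a and Flt3 or by Mreg and Il12b were named, and other dendritic cells were not resolved. No UMI of Cd209a was found in these dendritic-like nuclei. In rep128, which gave 89 of them, that is 0 of 678752 UMIs, which allows up to 4.42 CPM (3 UMIs of that total) for counting error alone. Apart from Clec7a, the members above the background in dendritic-like nuclei were Cd209f (17.4) and Cd209g (13.7), both below the mixed cluster. Cd209a in the Cd226 and Skint3 nuclei was at 23.8 and 77.2 in the mCherry HFD mice (22 and 8 UMIs) and between 0 and 25.4 in the other 6. In both mCherry HFD mice this was above the perivascular nuclei (13.6 and 12.9), as it was in rep140 (25.4 and 16.7).

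Likeness was measured as Pearson's r of log2(CPM + 5) over 29 sums of a subset in a mouse. The genes ranked were the 6418 with a mean of at least 20 CPM, which leaves out Cd209a and Cd209g. The sums share nuclei types and libraries, so these values only describe. Of all pairs of members, Cd209b and Cd209g were most alike (0.95). Of the genes ranked, Cd209b was most like Cd209d (0.93), Lyve1 (0.92), the hyaluronan receptor of perivascular macrophages, and Sulf2 (0.91). Cd209d was most like Sulf2 (0.95), Cd209b and Cd163 (0.91), the haemoglobin scavenger receptor. Cd209g was most like Cd209b (0.95), Lyve1 (0.93) and Cd38 (0.90), and the genes most like Cd209f included Ednrb (0.91) and Cd209b (0.88). Clec10a was most like Ddx60 (0.92), Cmah (0.91) and Maf (0.90), a transcription factor of resident macrophages. Mgl2 stood nearer to Ppp1r21 (0.93), Gfra2 (0.89) and App (0.89) than to its neighbour Clec10a (0.53). Clec4a1 was most like Abca9 (0.85), Picalm (0.84) and Zswim6 (0.84), Clec4b1 like Emb (0.90), Inpp5f (0.88) and Socs6 (0.88), and Cd209a like Gda (0.79), Ctsc (0.76) and Ptgs1 (0.76). Clec7a was most like Ifngr2 (0.84), Neurl3 (0.79) and Papolg (0.77), and its r with each other member was negative, from -0.56 with Mgl2 to -0.07 with Cd209g.

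The mix of subsets differed between the groups, and every comparison over all macrophage-like nuclei holds it. Lipid-associated nuclei made up 4.55% and 5.48% of the macrophage-like nuclei of the mCherry SD mice, 69.4% and 74.2% of the mCherry HFD mice, 22.7% and 53.5% of the Tert HFD mice and 22.1% and 25.7% of the TertCi HFD mice. Perivascular nuclei made up 83.0% and 78.8%, 18.1% and 17.6%, 62.5% and 34.0%, and 57.4% and 49.0% in the same order. Fewer nuclei of a subset and less RNA per nucleus cannot be told apart in such sums. Of the 445 lipid-associated nuclei of rep136, the shallowest library, 434 lay in the Tmem267-led subcluster. That subcluster also held 164 of 205 in rep134, 240 of 245 in rep138, 72 of 75 in rep140 and all 4 and 8 in the mCherry SD mice. It held 1 and 9 nuclei of the mCherry HFD mice and had Rn18s-rs5 (ribosomal RNA sequence) and Mir6236 among its leading genes. The lipid-associated percentages therefore set different subclusters side by side between the mCherry HFD mice and the other groups. Markers of other cells also moved with the groups: over macrophage-like nuclei the adipocyte markers summed to 752 and 931 CPM in the mCherry HFD mice and to between 1073 and 2000 in the other 6, and their part in the results was not tested.

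**Figure D2:**
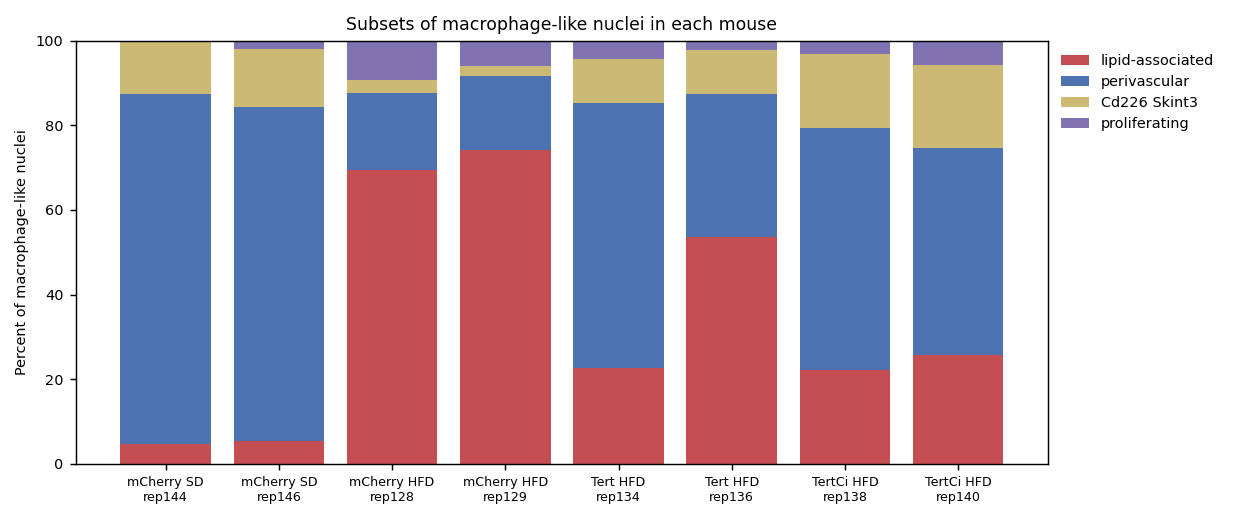
Percent of macrophage-like nuclei (vertical axis) in each subset for each of the 8 mice (horizontal axis), as stacked bars. Lipid-associated nuclei are 69.4% and 74.2% in the mCherry HFD mice and 4.55% and 5.48% in the mCherry SD mice.

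On the high-fat diet, the macrophage-like nuclei of mCherry mice had more Clec7a and less Mgl2, Cd209b, Cd209d and Clec4a1 than on the standard diet, and Cd209a was called lower on the strength of 1 mouse (rep146). Clec7a was at 27.2 and 23.6 CPM in the mCherry SD mice and at 108 and 84.9 in the mCherry HFD mice, without overlap, a log2 fold change of 1.77 ± 0.29 (SE; adjusted p = 0.00106). Mgl2 went the other way, from 64.7 and 82.6 to 12.1 and 16.3 (-2.66 ± 0.30; adjusted p = 7.25e-05). Cd209b was at 105.5 and 127 on the standard diet and at 26.9 and 15.6 on the high-fat diet (-2.62 ± 0.42; adjusted p = 0.00093). The groups did not overlap for either gene. Cd209d fell from 34.0 and 53.1 to 16.0 and 13.4 (-1.82 ± 0.40; adjusted p = 0.00663). Cd209a overlapped: it was at 3.40 and 25.1 on the standard diet and at 3.59 and 6.80 on the high-fat diet. The lower group lay under the background for Clec7a (60.5), Mgl2 (25.6) and Cd209a (6.83) in both mice, and for Cd209b (17.8) and Cd209d (15.5) in rep129, so the size of these folds is uncertain.

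The diet comparison called 6 of 10 members, 1 higher and 5 lower, while 20.8% of the 13321 genes tested were called in either direction, 10.5% higher and 10.3% lower. The members' median log2 fold change was -1.31, against 0.07 over all genes. Clec4a1 fell from 81.7 and 79.6 to 55.2 and 51.6 (-0.79 ± 0.22; adjusted p = 0.023), and Cd209a rested on 1 and 17 UMIs in the standard-diet mice (-2.07 ± 0.60; adjusted p = 0.0275). Clec10a (-0.58; adjusted p = 0.12), Cd209g (-1.32; 0.0761), Cd209f (-1.30; 0.187) and Clec4b1 (-0.28; 0.379) did not pass. Cd209f and Cd209g were called without rep134 (adjusted p = 0.0478 and 0.00763) or rep136 (0.0182 and 0.00421), at -1.31 to -1.26, and Cd209f was at -0.44 without rep146. The mouse rep146 carried most of the standard-diet depth, and without it only Mgl2 was called: Clec7a (1.61; adjusted p = 0.0545), Cd209b (-2.48; 0.0544), Cd209d (-1.41; 0.286) and Clec4a1 (-0.83; 0.165) no longer passed, and Cd209a turned to 0.26. Cd209a was also not called without rep128 (-1.46; adjusted p = 0.16) or without rep138 (-1.98; 0.055), and Clec4a1 not without rep144, rep128, rep129 or rep138 (-0.77 to -0.72).

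**Figure D3:**
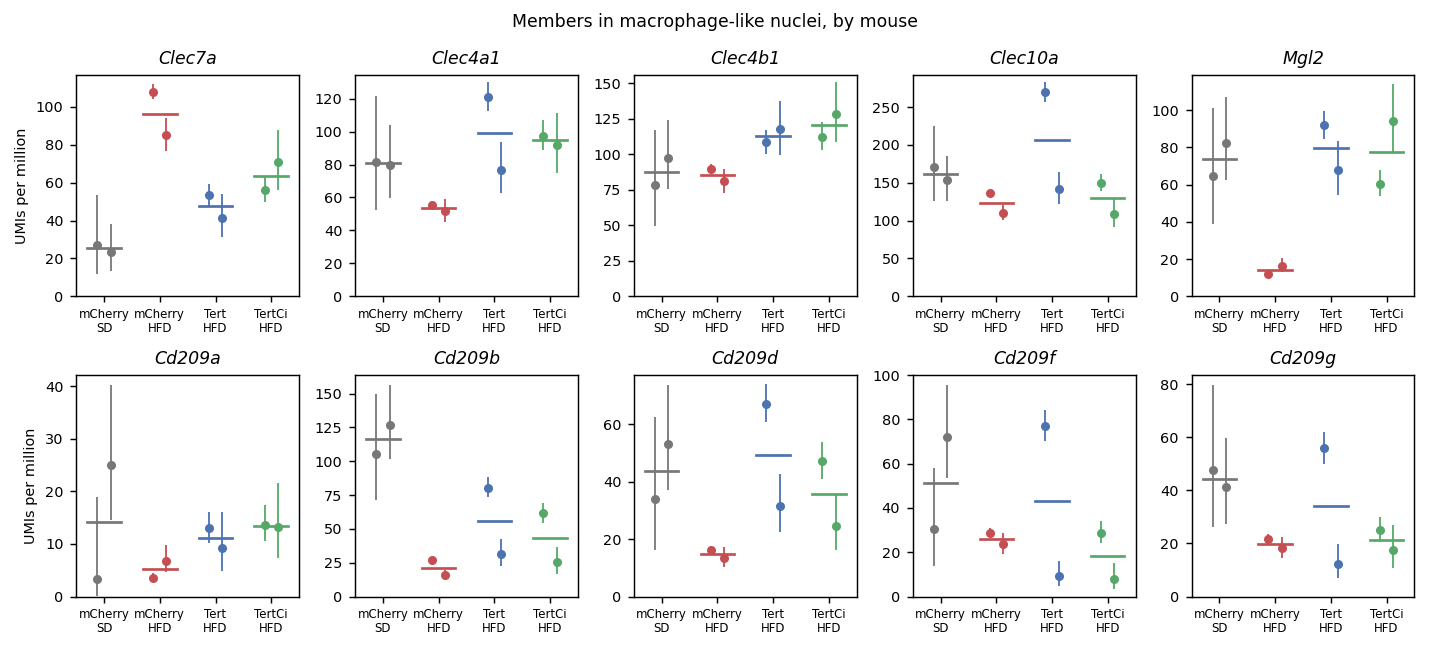
CPM in macrophage-like nuclei (vertical axes, from 0) for the 10 genes in the 4 groups; points are mice with exact 95% Poisson intervals for counting error, and lines are group means. Mgl2 lies at 12.1 and 16.3 in the mCherry HFD mice and at 60.5 or above in the other 6.

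Among mice on the high-fat diet, macrophage-like nuclei of both transgenic groups had more Mgl2, Clec4a1, Clec4b1, Cd209a, Cd209b and Cd209d than those of mCherry mice. The 2 comparisons share the mCherry HFD mice, so they are set side by side and not counted as independent. Mgl2 was at 91.8 and 67.6 in the Tert HFD mice and at 60.5 and 94.5 in the TertCi HFD mice, all within or near the range of the standard-diet mice. The mCherry HFD values of Mgl2 and Cd209a lie under their backgrounds, so the size of the folds against them is uncertain. Its fold change was 2.73 ± 0.25 in Tert (adjusted p = 4.91e-05) and 2.64 ± 0.25 in TertCi (adjusted p = 3.58e-05), and it was called without each of the 8 mice in turn.

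Clec4a1 was at 121 and 76.8 in the Tert HFD mice and at 97.4 and 91.8 in the TertCi HFD mice, above both mCherry HFD mice. Its fold change was 1.09 ± 0.18 (adjusted p = 0.00154) and 1.02 ± 0.18 (adjusted p = 0.00156), and it too was called in both without each mouse in turn. Cd209d was at 67.1 and 31.5 in Tert (1.95 ± 0.31; adjusted p = 0.00141) and at 47.1 and 24.5 in TertCi (1.54 ± 0.32; adjusted p = 0.004). Cd209b was at 80.5 and 31.5 in Tert (1.59 ± 0.37; adjusted p = 0.00984), and at 61.6 and 25.4 in TertCi (1.28 ± 0.38; adjusted p = 0.0238), where rep140 lay just under mCherry HFD rep128, so these groups overlapped.

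Clec4b1 showed small changes, 0.58 ± 0.17 (adjusted p = 0.0325) and 0.68 ± 0.18 (adjusted p = 0.0125), and Cd209a changed by 1.44 ± 0.45 (adjusted p = 0.04) and 1.69 ± 0.46 (adjusted p = 0.0158). Clec10a was called in Tert (0.92 ± 0.22; adjusted p = 0.0112), where rep134 was at 270 and rep136 at 142, but not in TertCi (0.28; adjusted p = 0.389). Clec7a was lower in Tert, at 53.4 and 41.5, both under its background of 60.5 (-0.83 ± 0.20; adjusted p = 0.0111), and its -0.45 in TertCi did not pass (adjusted p = 0.114). In Tert, 8 of 10 members were called, 7 higher and 1 lower, against 20.0% of all genes (8.89% higher and 11.1% lower). In TertCi, 6 were called, all higher, against 27.2% of all genes (12.4% higher and 14.8% lower). The members' medians were 1.07 and 0.85, and those of all genes -0.01 and -0.04.

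Several of these calls were lost when 1 mouse was left out, some with a much smaller fold and others with the fold little changed. Leaving out a mouse also weakens the test, so a lost call alone does not show that it rested on that mouse. Without rep134, the deeper of the Tert HFD libraries, Cd209b was at 0.77 (adjusted p = 0.281), Clec10a at 0.47 (0.15) and Cd209a at 1.23 (0.249), and Cd209f turned from 1.011 to -1.25. Without rep136, Cd209f (1.65; adjusted p = 0.00118) and Cd209g (1.58; 0.000168), which did not pass in Tert with all mice (adjusted p = 0.213 and 0.0748), were called. Without rep138, the deeper TertCi HFD library, Cd209b was at 0.37 (adjusted p = 0.71), Cd209d at 0.88 (0.241) and Cd209a at 1.61 (0.188). Without rep128, Clec7a in Tert was at -0.72 (adjusted p = 0.115) and Cd209a at 0.84 (0.447) and 1.09 (0.242), and without rep129 Cd209b was at 1.26 (0.0597) and 0.95 (0.131) and Clec10a at 0.75 (0.101). Clec4b1 was not called in either comparison without rep128, rep129 or rep138, nor without rep136 in Tert or rep140 in TertCi, at values from 0.45 to 0.75. Cd209a in Tert was also not called without rep138 (1.35; adjusted p = 0.0952).

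Perivascular nuclei were then compared on their own. Different subclusters held this class in different groups: 900 of the 908 perivascular nuclei of the mCherry HFD mice lay in a subcluster led by C6, Ccl8 and Vsig4, and 1787 of the 1817 of the other mice in one led by Tfrc and F13a1. Subcluster, group and library cannot be told apart here, except in rep134, which had 23 nuclei in the former and 543 in the latter. In that mouse Mgl2 was at 67.4 (exact 95% Poisson interval 35.9 to 115) and 119 (108.5 to 131), Clec7a at 98.5 (59.3 to 154) and 45.9 (39.3 to 53.4), Cd209b at 46.7 (21.3 to 88.6) and 127 (116 to 139), Cd209d at 31.1 (11.4 to 67.7) and 107 (96.9 to 118), and Cd209f at 104 (63.3 to 160.1) and 118 (107 to 129.3). The intervals of the members not printed here overlapped. All these intervals cover counting error only. The subclusters were made from these same nuclei, and how many of all genes separate in this way was not counted, so the values only describe.

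Mgl2 was called in the diet, Tert and TertCi comparisons of perivascular nuclei. It was at 73.5 and 98.4 CPM in the mCherry SD mice, 30.5 and 46.7 in mCherry HFD, 117 and 143 in Tert HFD, and 80.9 and 152 in TertCi HFD. Both mCherry HFD mice lay below all 6 others. The log2 fold change was -1.45 ± 0.35 with diet (adjusted p = 0.0118), 1.90 ± 0.30 with Tert (adjusted p = 0.000634) and 1.71 ± 0.30 with TertCi (adjusted p = 0.000875). The Tert and TertCi calls stood without each of the 8 mice, and the diet call did not without rep146 (-1.22; adjusted p = 0.231) or rep128 (-1.02; 0.173).

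**Figure D4:**
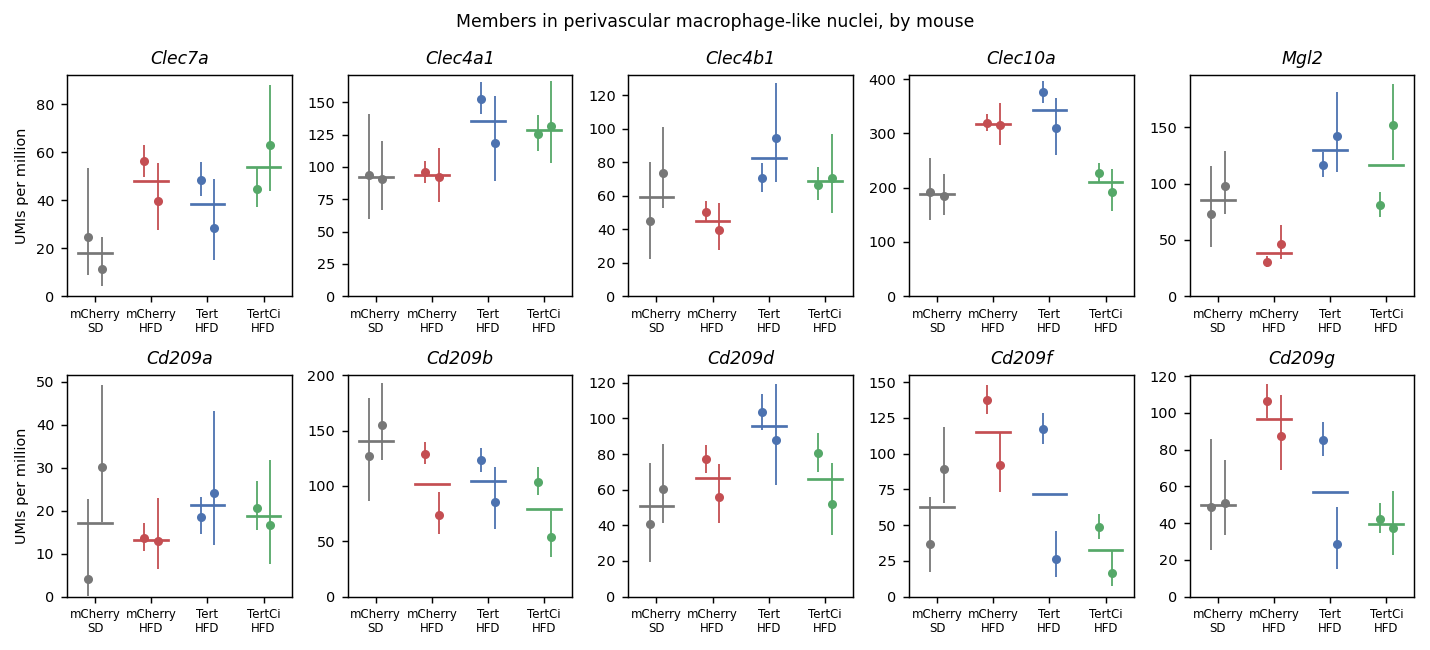
CPM in perivascular macrophage-like nuclei (vertical axes, from 0) for the 10 genes in the 4 groups; points are mice with exact 95% Poisson intervals for counting error, and lines are group means. Clec10a is at 319 and 315 in mCherry HFD against 192 and 185 in mCherry SD, and Mgl2 at 30.5 and 46.7 against 73.5 and 98.4.

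Clec10a, the neighbour of Mgl2, did not follow it. In perivascular nuclei it was at 192 and 185 in mCherry SD and at 319 and 315 in mCherry HFD, a rise of 0.61 ± 0.18 (adjusted p = 0.0317), while its value over all macrophage-like nuclei was -0.58. It was at 376 and 309 in Tert HFD and at 227 and 193 in TertCi HFD. The TertCi difference from mCherry HFD of -0.47 lay at the threshold (adjusted p = 0.0505) and was between -0.60 and -0.35 with 1 mouse left out. The diet call was lost without any 1 of the 4 mice compared (0.55 to 0.67; adjusted p from 0.0657 to 0.215) and with DESeq2 (0.0778). Clec7a was at 24.5 and 11.4 in mCherry SD and at 56.2 and 39.7 in mCherry HFD. All 4 values lie below its background of 60.5 and are not read as expression. That background is pooled over all mice and was not measured in standard-diet mice alone. Clec7a was called with diet (1.53 ± 0.46; adjusted p = 0.0358), but the call rested on 6 UMIs in each standard-diet mouse. That call was lost without rep146 (0.86; adjusted p = 0.453), without rep128 (1.23; 0.232) and with DESeq2 (0.12). Clec7a did not pass in Tert (-0.17; adjusted p = 0.8) or TertCi (0.13; 0.813).

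None of the 5 Cd209 genes was called with diet within perivascular nuclei, and whether this differs from the calls over all macrophage-like nuclei was not tested. Cd209b was at 127 and 155 in mCherry SD and 129.2 and 73.6 in mCherry HFD, overlapping (-0.57; adjusted p = 0.239). Cd209d (0.23; 0.679), Cd209a (-0.79; 0.371), Cd209f (0.63; 0.432) and Cd209g (0.83; 0.142) did not pass either, although Cd209g was called without rep134 (0.84; 0.0358) or rep136 (0.82; 0.0442). In TertCi HFD, Cd209f was at 48.5 and 16.7 against 137 and 92.3 in mCherry HFD (-1.50 ± 0.42; adjusted p = 0.0204), and Cd209g at 42.1 and 37.1 against 106 and 87.6 (-1.17 ± 0.30; adjusted p = 0.0105). These 2 genes, whose promoters are printed above, share 50-base words. Reads from such words cannot be assigned to 1 gene, so the levels of both are less certain. The Tert HFD mice disagreed with each other on both: rep134 was at 117 and 85.5, and rep136 at 26.3 and 28.5, and neither gene passed (-0.39; adjusted p = 0.616, and -0.48; 0.314).

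Without rep134, Cd209f and Cd209g in Tert were at -2.04 (adjusted p = 0.0147) and -1.66 (0.00751), and without rep136 Cd209f was at 0.04. The TertCi calls were lost without rep128 (-1.19; adjusted p = 0.178, and -1.04; 0.11), without rep140 (-1.15; 0.126, and -1.09; 0.0617) and with DESeq2 (0.311 and 0.0507), and that of Cd209g without rep138 as well (-1.29; 0.124). Cd209b (0.11 and -0.21), Cd209d (0.57 and 0.14) and Cd209a (0.63 and 0.65) did not pass in Tert or TertCi.

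Within perivascular nuclei Clec4a1 was higher in both transgenic groups, and Clec4b1 in Tert HFD. Clec4a1 was at 93.9 and 90.8 in mCherry SD, 95.9 and 92.3 in mCherry HFD, 153 and 119 in Tert HFD, and 126 and 132 in TertCi HFD. All 4 transgenic mice lay above all 4 mCherry mice (Tert 0.64 ± 0.18, adjusted p = 0.0314; TertCi 0.55 ± 0.18, adjusted p = 0.0495), and the diet difference of -0.10 did not pass (adjusted p = 0.821). Clec4b1 was at 44.9 and 73.8 in mCherry SD, 50.4 and 39.7 in mCherry HFD, 70.6 and 94.4 in Tert HFD and 66.6 and 70.5 in TertCi HFD. It was called in Tert (0.82 ± 0.24; adjusted p = 0.0383) and not in TertCi (0.65; 0.0789) or with diet (-0.57; 0.232). With 1 mouse left out, its TertCi value was between 0.49 and 0.84. Both mCherry HFD values and that of rep144 lie under the Clec4b1 background of 57.7. The Clec4a1 and Clec4b1 calls are near the threshold: both were lost with DESeq2 (adjusted p from 0.173 to 0.251), without rep128, rep129 or rep138, and without rep134 (Clec4a1 in Tert), rep136 (Clec4b1) or rep140 (Clec4a1 in TertCi), at values between 0.46 and 1.02.

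Over perivascular nuclei, 3 of 10 members were called with diet, 2 higher and 1 lower, against 14.1% of 8318 genes (8.15% higher and 5.93% lower). In Tert 3 were called, all higher, against 11.5% (3.65% higher and 7.83% lower). In TertCi 4 were called, 2 higher and 2 lower, against 18.2% (7.08% higher and 11.2% lower). The members' medians were 0.06, 0.39 and 0.13, and those of all genes 0.01, 0.0026 and -0.01. With DESeq2, Mgl2 alone was called in each of the 3. The 10 adipocyte markers summed to 395 and 410 CPM in the perivascular nuclei of the mCherry HFD mice and to between 877 and 1941 in the other 6, none at 0. The 8 B-cell markers summed to 493 and 618 there and to between 862 and 1466 in the other 6, with 0 to 4 of them at 0 in a mouse. The part of either list in the results was not tested. In adipocyte-like nuclei Mgl2 was at 2.25 and Clec4a1 at 2.87 CPM.

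**Figure D5:**
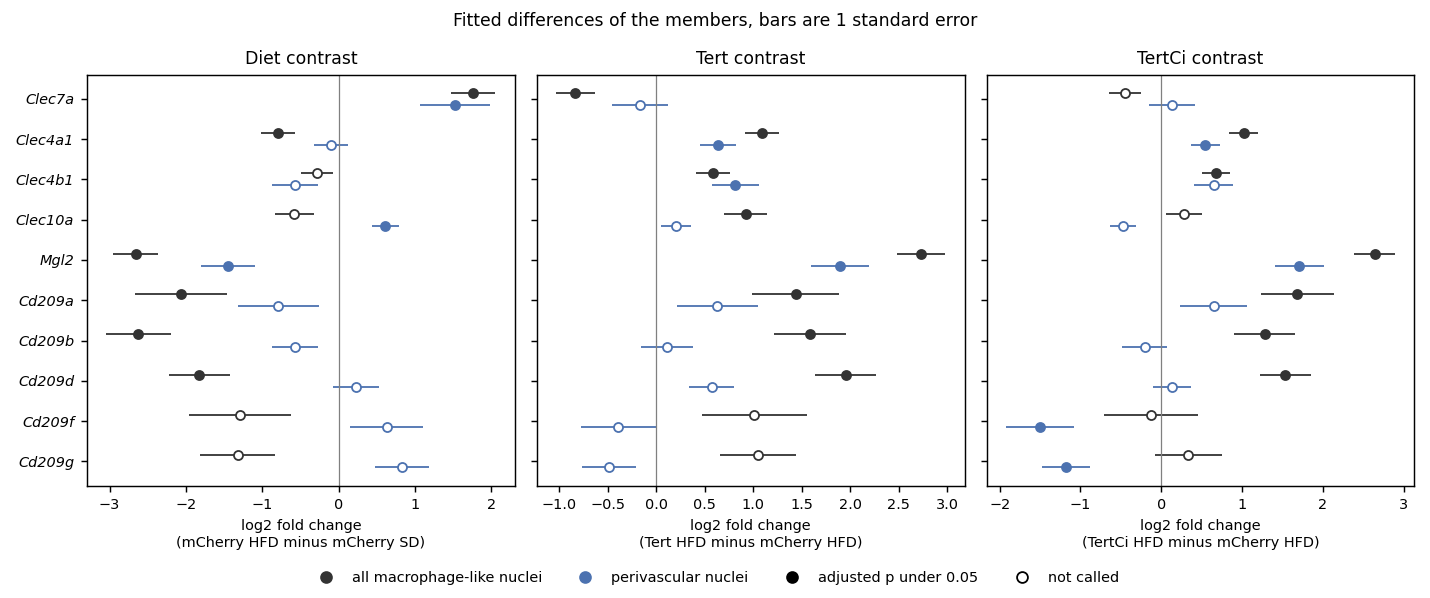
Fitted log2 fold changes (horizontal axes) of the 10 genes for the diet, Tert and TertCi comparisons, over all macrophage-like nuclei (black) and over perivascular nuclei (blue); bars are 1 standard error and filled points had an adjusted p under 0.05. Mgl2 is filled in every panel for both, and Cd209b and Cd209d are filled over all macrophage-like nuclei only.

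Between Tert HFD and TertCi HFD no member was called, over all macrophage-like or over perivascular nuclei. edgeR called 0 of 13321 genes over macrophage-like nuclei and 1 of 8318 (0.0120%) over perivascular nuclei. DESeq2 called none and 1, and of the members 1 and 3 had an unadjusted p under 0.05. The largest differences in perivascular nuclei were Cd209f (1.11 ± 0.43; adjusted p = 0.785), Cd209g (0.69 ± 0.31; 0.851) and Clec10a (0.68 ± 0.16; 0.228). With 1 mouse left out, Clec10a stayed between 0.57 and 0.80 there, and over all macrophage-like nuclei it was at 0.65. Without rep134 Cd209f was at -0.54 and Cd209g at -0.48, and without rep136 Cd209f was at 1.49 (adjusted p = 0.0441). A p that misses the threshold with 2 mice a group does not show that the groups were alike.

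In lipid-associated nuclei 1 member was called. The mCherry SD mice had 4 and 8 such nuclei, so no diet comparison was made. Of the 5 members tested, Clec10a in TertCi was called: it was at 88.3 and 57.0 in mCherry HFD and at 31.3 and 20.2 (31 and 6 UMIs) in TertCi HFD (-1.25 ± 0.32; adjusted p = 0.0353), against 9.85% of 10073 genes. The Clec10a background is 87.5, so 3 of these 4 values lie below it and 1 is level with it. In Tert no member was called, against 8.81%, with 3 at an unadjusted p under 0.05. The Clec10a call was lost without rep128 (-0.89; adjusted p = 0.21), rep138 (-1.67; 0.255) or rep140 (-1.11; 0.155). Clec7a was at 128.4 and 102 in mCherry HFD, 81.6 and 57.8 in Tert HFD and 77.7 and 111 in TertCi HFD (-0.59; adjusted p = 0.136, and -0.22; 0.607). Mgl2 was at 15.9 and 13.3 in Tert HFD against 5.56 and 7.40 in mCherry HFD, without overlap (1.35 ± 0.44; adjusted p = 0.0874), and all 4 values are near the median of the non-myeloid clusters, 10.3. The adipocyte markers summed to 877 and 1085 CPM in mCherry HFD and to between 1508 and 2112 in the transgenic mice, and their part was not tested. The class again had different subclusters: the Myom1-led and Gpnmb-led ones were nearly all from the mCherry HFD mice, and the Tmem267-led one held 164 and 434 nuclei of the Tert HFD mice, 240 and 72 of the TertCi HFD mice and 1 and 9 of the mCherry HFD mice. Subcluster and group cannot be told apart in these comparisons. The part of Rn18s-rs5 and Mir6236, among the leading genes of the Tmem267-led nuclei, was not tested. Cd209a, Cd209b, Cd209d, Cd209f and Cd209g, at 14 to 80 UMIs in this class, were too low to test.

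In the Cd226 and Skint3 nuclei Clec4b1 was high in every mouse, from 195 to 315 CPM (26 to 190 UMIs in the 6 high-fat-diet mice, 12 and 21 in the standard-diet mice), and was not called by diet or genotype. Clec7a was called in Tert: it was at 118 and 86.9 in mCherry HFD, at 44.5 in rep134 and at 0 of its UMIs in rep136, whose 85 nuclei were shallow, both under the background (-1.73 ± 0.46; adjusted p = 0.0242). This was 1 of 5 members tested, against 4.96% of 4171 genes, and it was lost with DESeq2 (0.281), without rep128 (-1.40; adjusted p = 0.621) and without rep136 (-1.30; 0.088). Mgl2 was at 44.4 and 38.6 in mCherry HFD, 116 and 79.7 in Tert HFD and 68.8 and 84.7 in TertCi HFD, and it did not pass (1.25; adjusted p = 0.0526, and 0.80; 0.249), although in Tert it was called without rep144, rep146 or rep136 (1.29 to 1.43). With diet (4.75%) and in TertCi (8.10%) no member was called, with 0 and 1 at an unadjusted p under 0.05 and none by DESeq2.

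Dendritic-like nuclei could be compared in 5 mice, with rep138 alone for TertCi and no standard-diet mouse. Clec7a was at 149 and 167 in mCherry HFD, 56.1 and 0 in Tert HFD (5 UMIs in all) and 55.4 in rep138. In Tert none of the 3 members tested was called (Clec7a -1.78, adjusted p = 0.207), against 1.83% of 3932 genes, with 1 at an unadjusted p under 0.05 and none by DESeq2. For TertCi, with 1 mouse, the values are given with no test. Monocyte-like nuclei reached 10 in rep128 and rep134 only and were not tested. There Clec7a was at 114 and 115, Clec4a1 at 85.8 and 147, and Mgl2 at 4.08 and 131 (1 and 16 UMIs). Proliferating nuclei were described only: Clec7a was at 71.6 and 43.1 in mCherry HFD and had 3, 2, 2 and 0 UMIs in the 4 transgenic mice, while Clec4b1 was at 107 and 43.1 in mCherry HFD, 210 and 92.5 in Tert HFD and 233 and 210.3 in TertCi HFD. The transgenic mice had 40, 19, 35 and 17 such nuclei, and 92.5 in rep136 is the level of 3 UMIs.

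Sums over all barcodes of a library hold both the number of macrophages and the RNA of each. Clec7a was at 6.76 and 6.29 CPM in mCherry SD, 89.2 and 66.9 in mCherry HFD, 30.3 and 22.1 in Tert HFD and 19.9 and 18.5 in TertCi HFD. The 4 groups did not overlap, with fold changes of 3.11 ± 0.21 for diet (adjusted p = 0.000158), -1.22 ± 0.20 for Tert (0.00949) and -1.60 ± 0.20 for TertCi (0.00188). Mgl2 was at 15.3 and 20.1, 12.8 and 16.2, 45.6 and 27.8, and 19.9 and 37.1 in the same order. It was higher in Tert (1.68 ± 0.33; adjusted p = 0.0161) and TertCi (1.42 ± 0.33; 0.0163), and the part of cell number was not tested. Both Mgl2 calls were lost without rep128 or rep129, and the TertCi call without rep140 (0.84 to 1.86). Clec7a in Tert was not called without rep128 (-1.01; adjusted p = 0.0643) or rep136 (-1.16; 0.0626).

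With diet, 4 members were called over all barcodes, all higher, against 38.4% of 24825 genes (21.6% higher and 16.8% lower): Clec7a, Clec4b1 (1.57), Clec10a (0.87) and Clec4a1 (0.81), the last not without any 1 of the 4 mice compared. In Tert 2 were called, 1 each way, against 21.1% (9.84% higher and 11.2% lower). In TertCi 3 were called, 1 higher and 2 lower, against 31.7% (13.2% higher and 18.6% lower), among them Clec10a (-0.90 ± 0.17; adjusted p = 0.00745), not called without rep138 (-0.75; 0.0684). No Cd209 gene was called in any of these. Between Tert and TertCi edgeR called none, with 1 member at an unadjusted p under 0.05, Clec10a (0.90 ± 0.17; adjusted p = 0.791). DESeq2 called 1 member.

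Other C-type lectins and the signalling genes below them were read from lists chosen with earlier results of these data known. Of 34 other C-type lectins, 21 were tested over macrophage-like nuclei. With diet 1 was higher, Clec12a (2.02 ± 0.29), an inhibitory receptor for uric acid crystals, and 4 were lower: Asgr2 (-2.88), a hepatic-type asialoglycoprotein receptor that lies beside Mgl2, Colec12 (-1.51), Mrc1 (-1.32), the mannose receptor, and Clec2i (-1.26). In Tert 4 were higher, Asgr2 (2.63), Olr1 (2.05), Clec2i (1.36) and Mrc1 (0.71), and Clec12a was lower (-0.79). In TertCi 6 were higher, among them Asgr2 (2.38), Cd209c (1.49), the paralogue between Cd209b and Cd209f, Clec2i (1.33), Klrk1 (1.25) and Colec12 (0.86), and Clec12a was lower (-1.34). The list's medians were -0.05, 0.28 and 0.20, against 0.07, -0.01 and -0.04 over all genes, of which 20.8%, 20.0% and 27.2% were called. Of the list, 5, 5 and 7 of 21 were called.

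In perivascular nuclei 12 of these lectins were tested. Clec12a (1.72), Clec4a3 (1.21) and Clec2d (0.92) were higher and Colec12 lower (-0.80) with diet, none was called in Tert, and in TertCi Colec12 was higher (0.59) and Clec12a (-0.80) and Clec2d (-0.78) lower. The list's medians were 0.08, 0.06 and 0.09, and 14.1%, 11.5% and 18.2% of all genes were called. In Tert 2 of the 12 lectins had an unadjusted p under 0.05 in edgeR. In lipid-associated nuclei 12 were tested, none was called by edgeR in Tert (3 at an unadjusted p under 0.05), and in TertCi Clec12a (-0.93) and Mrc1 (-0.66) were lower. Of all genes, 8.81% were called there in Tert and 9.85% in TertCi.

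Of 36 signalling genes, 35 were tested over macrophage-like nuclei. With diet 7 were higher and 7 lower. The largest were Egr2 (3.01), Tyrobp (2.04), the adaptor DAP12, Lsp1 (-1.54), Nfatc2 (-1.40), Prkcd (1.19) and Rel (1.07). In Tert 4 were higher and 3 lower, among them Lsp1 (1.81), Tyrobp (-1.58), Egr2 (-1.06), Nfatc2 (0.82) and Pik3cd (0.77). In TertCi 8 were higher and 6 lower, among them Il10 (-3.05), Lsp1 (2.47), Egr2 (-2.003), Tyrobp (-1.77) and Nfatc2 (1.04). The list's medians were -0.07, 0.15 and 0.0009. The 14, 7 and 14 of 35 called stand beside 20.8%, 20.0% and 27.2% of all genes. Syk and Card9, which act directly below Dectin-1, were not among the genes called.

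Within perivascular nuclei 30 signalling genes were tested. With diet 4 were higher and 3 lower, led by Tyrobp (2.27), Prkcd (1.04), Fcer1g (0.88), the Fc receptor gamma chain, Pik3r1 (-0.81), Tab2 (-0.70) and Nfatc2 (-0.68). In Tert, Tyrobp (-2.10) and Fcer1g (-0.90) were lower. In TertCi 4 were higher and 3 lower, among them Tyrobp (-2.17), Fcer1g (-1.34), Lyn (0.65), Nfatc2 (0.58) and Pik3r1 (0.55). The 7, 2 and 7 of 30 called stand beside 14.1%, 11.5% and 18.2% of all genes. In lipid-associated nuclei Tyrobp was lower in Tert (-1.23) and TertCi (-1.30), Fcer1g lower in TertCi (-1.22), Malt1 higher in both (0.79 and 0.78) and Pik3cd higher in Tert (0.72). There 34 signalling genes were tested, and 8.81% of all genes were called in Tert and 9.85% in TertCi.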

How the data were processed

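Nuclear RNA of visceral fat from 8 mice, 2 in each of 4 groups, was measured by droplet single-nucleus RNA-seq, after sorting of DAPI-stained nuclei. The deposited values are raw UMI counts per gene and barcode, with all barcodes kept. Cell Ranger 7.1.0 made them per the file headers, while the submitters' processing notes name Cell Ranger 5.0.1, bcl2fastq 2.20.0 and mm39. The design text speaks of RNA-seq of the stromal vascular fraction, and the sample labels of fat nuclei. The labels were followed.

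Library totals ran from 23378488 UMIs (rep136) to 139749876 (rep128). Barcodes were kept as nuclei above a threshold per library (987 to 4705 UMIs), a minimum of 300 detected genes and a ceiling of 5% on mitochondrial RNA. The doublet caller's own cut marked at most 0.154% of nuclei and so did not work, and the nuclei with the highest scores, 1.59% to 6.35% per library, were removed instead. Nuclei were clustered (scanpy 1.11.5, Leiden) without the 10 members and the other C-type lectins, and named from marker lists. A rule added after the data were seen named the Myom1-led and Tmem267-led lipid-associated subclusters. It asked for a mean score of at least 2.0 against low levels over all clusters, ahead of the perivascular list by 1.0. UMIs were summed per mouse and class (at least 10 nuclei) and tested with edgeR 4.0.16 (TMM, filterByExpr, quasi-likelihood, all mice in 1 fit, Benjamini-Hochberg adjustment over all genes tested, threshold 0.05). All adjusted p-values are from this test unless DESeq2 1.42.0 is named. The edgeR fit was tested on simulated sums of macrophage-like nuclei with known diet changes and the same spread for every gene. Doublet removal, clustering, naming and DESeq2 were not tested in this way. A p-value sets a difference between groups against the spread between mice, which was estimated over all groups together with 2 mice a group. Leaving out a mouse of another group can therefore change a call. Intervals are exact Poisson ones.

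The members and lists were chosen with earlier results of these data known. From each list, up to 6 called genes of largest absolute change are named per comparison, and a few genes that these rules pick are not reported here. Levels near those of non-myeloid clusters may come from free RNA or mixed droplets, which was not tested. Alternatives were the normalization, DESeq2, the count filter, doublets, clustering, UMI thresholds, thinning to 1000 UMIs and leaving out each mouse.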

Additional observations from a re-analysis of the deposited data

How the results depend on the processing

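The calls of Mgl2 over macrophage-like nuclei in the diet, Tert and TertCi comparisons, of Mgl2 over perivascular nuclei in Tert and TertCi, of Clec4a1 over macrophage-like nuclei in Tert and TertCi and of Cd209d there in Tert held under every alternative run. The other calls did not all hold, and the cause was not tested. Over all barcodes, leaving out 1 mouse kept Clec7a between 2.89 and 3.29 with diet and between -1.78 and -1.385 in TertCi. No paired analysis was possible because the groups share no replicate number. Where leaving out a mouse left 1 in a group, that mouse is assumed to vary like the other groups.

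Over macrophage-like nuclei, thinning to 1000 UMIs left 3 members called with diet in place of 6, and without the count filter 1 was called between Tert and TertCi. DESeq2 left 1 called over perivascular nuclei in each of diet, Tert and TertCi in place of 3, 3 and 4, and 0 in the Cd226 and Skint3 nuclei in Tert. Without the filter 1 was called between Tert and TertCi over perivascular nuclei, and over all barcodes 6 in TertCi and 2 between Tert and TertCi, where DESeq2 called 1. A threshold of 1000 UMIs in every library, and all tests of the Cd226 and Skint3 nuclei, were added after the data were seen. With that threshold 6 members were called over perivascular nuclei with diet, 3 and 4 over lipid-associated nuclei in Tert and TertCi, and 2 in the Cd226 and Skint3 nuclei with diet and in TertCi. Over perivascular nuclei more of all genes were called at that threshold as well. The share of all genes called is not given beside the counts of members in this and the next paragraph. These counts are therefore not read as results about the members. The classes were then made of other nuclei: the subcluster led by Oprm1 and holding Myom1 and Clec7a among its leading genes (6514 nuclei) was no longer named lipid-associated.

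Leaving out 1 mouse at a time, the members called ranged over macrophage-like nuclei from 1 to 8 with diet, 5 to 9 in Tert and 2 to 6 in TertCi, over perivascular nuclei from 0 to 4, 1 to 4 and 1 to 5, and 0 to 1 between Tert and TertCi. They ranged from 0 to 1 over lipid-associated nuclei in TertCi, 0 to 2 in the Cd226 and Skint3 nuclei in Tert and 0 to 3 over all barcodes in Tert.

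At 1000 UMIs, with the class so changed, the sign changed over lipid-associated nuclei for Clec10a (0.0325) and Clec7a (0.18) in Tert and for Mgl2 (1.32) and Clec7a (0.30) in TertCi, and over perivascular nuclei for Clec7a (0.10) and Cd209b (-0.24) in Tert and Cd209d (-0.083) in TertCi. Over all barcodes, Clec10a in Tert was at 0.0061 with RLE, 0.0068 with DESeq2, 0.017 without the filter and 0.32 in nuclei only.

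Leaving out 1 mouse changed the sign over macrophage-like nuclei for Cd209a with diet (-2.54 to 0.26), Cd209f (-1.25 to 1.65) and Cd209g (-0.44 to 1.58) in Tert, Clec10a (-0.017 to 0.48), Cd209f (-1.58 to 0.32) and Cd209g (-0.035 to 0.52) in TertCi, and Cd209f (-1.10 to 2.51) and Cd209g (-0.75 to 1.22) between Tert and TertCi. Over lipid-associated nuclei it did so for Clec10a in Tert (-0.37 to 0.28) and Mgl2 (-0.91 to 0.30) and Clec7a (-0.45 to 0.14) in TertCi. Over perivascular nuclei it did so for Cd209a (-1.31 to 1.52) and Cd209d (-0.019 to 0.59) with diet, Clec7a (-0.69 to 0.12), Cd209b (-0.21 to 0.61) and Cd209f (-2.04 to 0.038) in Tert, Clec7a (-0.0697 to 0.45), Cd209d (-0.29 to 0.39) and Cd209b (-0.86 to 0.28) in TertCi, and Cd209f (-0.54 to 2.31) and Cd209g (-0.48 to 0.99) between Tert and TertCi. Over all barcodes it did so for Clec10a (-0.15 to 0.15) and Clec4b1 (-0.23 to 0.0082) in Tert and Clec4a1 in TertCi (-0.30 to 0.10).

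Counts over all genes moved as well. Over macrophage-like nuclei, thinning took them from 2766 to 1082 with diet, 2669 to 1601 in Tert and 3620 to 1993 in TertCi, DESeq2 gave 1634 in Tert and 2308 in TertCi, and 1000 UMIs gave 5068 with diet. Over perivascular nuclei DESeq2 took them from 1171 to 631, 955 to 404 and 1518 to 755, and 1000 UMIs gave 2815, 1743 and 2975.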
